A study of Mus musculus with 8 samples.

Results

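The ribosome biogenesis genes described here encode the machinery that makes, trims, modifies and packs ribosomal RNA, together 40 genes picked by name. A gene was kept when it had at least 1 RPKM (sequence tags per kilobase of exon, scaled to the size of the library) in at least 2 of the 8 libraries. All 40 listed genes were in the table and met this level, out of 24940 genes in the table and 11040 at that level. RNA came from bone marrow-derived macrophages of C57BL/6 mice aged 6-8 weeks, which are osteoclast precursors grown in M-CSF, the growth factor of this lineage, at 30 ng/ml. They carried either the hairpin labelled TMBIM6sh, aimed at Tmbim6, a membrane protein of the endoplasmic reticulum, or the hairpin labelled NCsh, a name that the labels do not spell out. The 4 groups of 2 libraries each were TMBIM6sh with RANKL at 100 ng/ml for 24 h, TMBIM6sh without RANKL, NCsh with RANKL and NCsh without RANKL. All samples carry the same treatment text, which names RANKL, so the groups without it were taken from the titles. The labels name 1 hairpin against Tmbim6 and 1 to compare it with, so lower Tmbim6 and unintended effects of either hairpin cannot be told apart.

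Ribosomes are built in the nucleolus. RNA polymerase I copies the ribosomal DNA into a long precursor, small nucleolar RNA-protein particles guide the methylation (box C/D) and pseudouridylation (box H/ACA) of that precursor, and a large set of assembly factors folds and cuts it into the small and the large subunit. Genes of this machinery are known targets of the transcription factor Myc, whose binding sequence is the E-box, and cells that grow and divide need much of it. RANKL is the cytokine that starts osteoclast formation in these macrophages, a program in which precursor cells first divide and then fuse into large cells that secrete acid and proteases.

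The depth was 25475000 to 28595000 tags per library, of which 83.5% to 86.4% fell in gene exons. Tmbim6 itself stood at 10.0 to 11.7 RPKM in the TMBIM6sh libraries and at 309 to 334 RPKM in the NCsh libraries. All 8 macrophage markers examined were present, among them Csf1r, Adgre1, Cd68, Itgam and Lyz2, and their summed level was 7498 to 8590 RPKM in TMBIM6sh libraries and 9193 to 10784 RPKM in NCsh libraries. Most of this sum was Lyz2 (5280 to 8071 RPKM), which did not pass between hairpins in the test described below. Of the 8, 0 passed between hairpins without RANKL. With RANKL 0 were higher in TMBIM6sh and 2 lower, Csf1r (log2 difference -0.28) and Mertk (-0.46). Log2 differences below 0 were seen for all 8 without RANKL and for 7 with it. Of 8 neutrophil markers 7 were under 1 RPKM in every library and Ly6g was at 0, and their sum, nearly all S100a8, was 11.5 to 15.5 RPKM in TMBIM6sh libraries and 22.6 to 28.1 RPKM in NCsh libraries. The erythroid, mast and basophil markers summed to at most 0.103 RPKM, the lymphocyte markers to at most 3.13 RPKM, and the stromal markers to at most 3.56 RPKM. Of 8 lymphocyte markers 6 had an entry, and Cd79b alone reached 3.07 RPKM. Between hairpins S100a8 (-0.85 with RANKL and -0.86 without it) and Cd79b (-0.71 and -0.78) passed as lower in TMBIM6sh. The 2 stromal markers tested did not pass. Of 8 osteoclast markers 4 stayed under 1 RPKM in every library, Ctsk and Calcr among them, Acp5 stood at 50.9 to 64.7 RPKM, Mmp9 at 12.7 to 73.4 RPKM and Atp6v0d2 at 6.47 to 14.9 RPKM. Their summed level was 134 and 145 RPKM in TMBIM6sh libraries with RANKL, 84.1 and 85.0 in TMBIM6sh without it, 98.7 and 108 in NCsh with RANKL, and 86.6 and 93.2 in NCsh without it. The part of these marker differences in the results on the members was not tested. The 2 NCsh libraries without RANKL differed from each other with exon length: among 1230 genes under 1000 bases the median of replicate 2 minus replicate 1 was 0.23 on the log2 scale, and among 2842 genes over 4000 bases it was -0.09. In the other groups these medians lay between -0.02 and 0.09, so results that rest on the NCsh libraries without RANKL are also given without each of them. In bulk RNA, fewer cells of a type and less RNA per cell cannot be told apart. Nothing in the labels says that duplicates came from separate animals or cultures, so the p-values cover no more than the spread between libraries, which may be technical.

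With RANKL the ribosome biogenesis genes stood higher as a group under both hairpins. In TMBIM6sh libraries 11 of the 40 rose and 0 fell, and in NCsh libraries 13 rose and 0 fell (limma on log2(RPKM + 1), Benjamini-Hochberg adjusted p under 0.05 over all 11040 genes). In TMBIM6sh libraries the background was 8.53% of all genes tested called higher and 6.89% called lower, and in NCsh libraries it was 11% and 3.98%. The median log2 difference of the members was 0.20 in TMBIM6sh libraries, beside 0.02 over all genes, and 0.22 in NCsh libraries, beside 0.06 over all genes. The NCsh median was 0.14 under median-ratio scaling, beside -0.01 over all genes. All 40 members had a log2 difference above 0 under either hairpin with the deposited values and all 8 libraries. Of all 11040 genes, 5952 did so in TMBIM6sh and 6978 in NCsh. In TMBIM6sh, Ltv1 turned below 0 under median-ratio scaling, with the length trend removed, and without replicate 2 of either TMBIM6sh group. In NCsh, Pno1 and Wdr74 did so under median-ratio scaling and without replicate 2 with RANKL, Pno1 also with the length trend removed, and Ebna1bp2, Nhp2 and Nop10 without replicate 1 without RANKL. At an unadjusted p under 0.05, 24 members were higher and 0 lower under each hairpin. Of all 11040 genes, 3156 in TMBIM6sh and 3331 in NCsh had such a p in either direction. The limma-voom fit on the recovered tags called 20 members higher in TMBIM6sh and 21 in NCsh with 0 lower in both. Over all genes limma-voom called 11.2% higher and 9.07% lower in TMBIM6sh, and 16.3% and 5.71% in NCsh. The mean log2 level of the 40 genes was 4.34 and 4.41 in TMBIM6sh libraries with RANKL, 4.13 and 4.14 in TMBIM6sh libraries without it, 4.30 and 4.32 in NCsh libraries with RANKL, and 3.99 and 4.10 in NCsh libraries without it. The 4 libraries with RANKL thus all lay above the 4 without it. Markers of cell type moved with RANKL as well. Of the 8 macrophage markers 0 rose and 4 fell under each hairpin (median log2 difference -0.23 in TMBIM6sh and -0.25 in NCsh): Csf1r, Fcgr1 and Mertk under both, Itgam in TMBIM6sh and Cd14 in NCsh. Of the 4 osteoclast markers tested Mmp9, a matrix protease, rose (1.66 in TMBIM6sh and 1.18 in NCsh) and Atp6v0d2, a proton pump subunit, fell (-0.50 and -0.27). These markers also differed between hairpins. Mmp9 was higher in TMBIM6sh (1.22 with RANKL and 0.74 without it) and Atp6v0d2 lower (-0.77 and -0.54). Acp5 and Dcstamp passed in none of these comparisons.

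**Figure D1:**
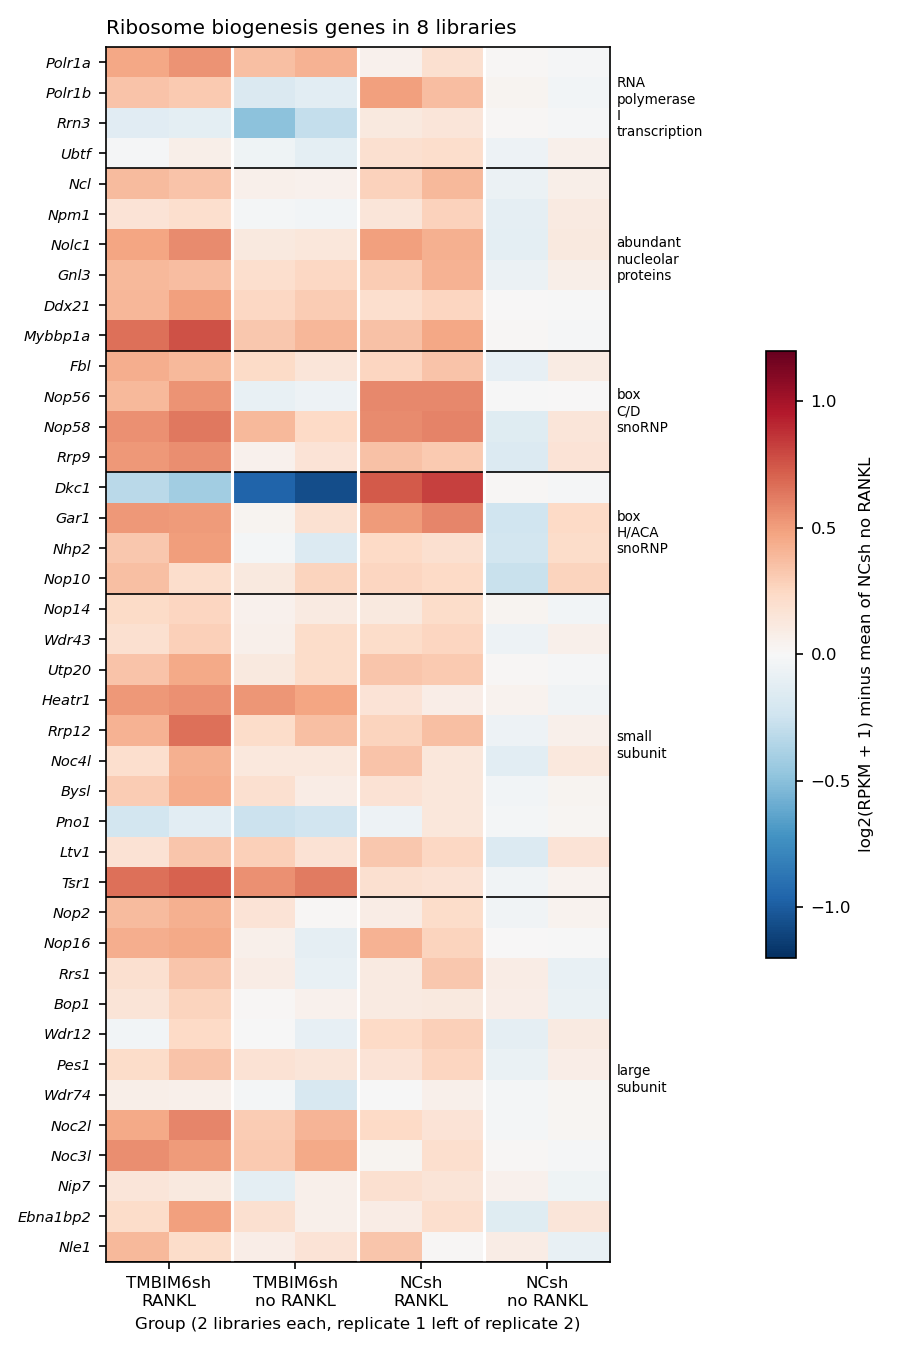
Heat map of the 40 ribosome biogenesis genes (down the page, by role) in the 8 libraries (across, 2 per group), coloured by log2(RPKM + 1) minus the mean of the NCsh libraries without RANKL, red for higher and blue for lower. The columns with RANKL are redder than those without it under both hairpins, Dkc1 is blue in all 4 TMBIM6sh libraries, and Tsr1, Heatr1 and Polr1a are red in them.

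Of the 17 genes called with RANKL under either hairpin, 7 were called under both: Dkc1, Mybbp1a, Ncl, Nolc1, Nop16, Nop56 and Polr1b. The overlap of calls over all genes was not counted, so whether this overlap is usual was not tested. Nhp2, Nop2, Rrn3 and Rrp9 passed in TMBIM6sh libraries alone, and Ddx21, Fbl, Gar1, Gnl3, Nop58 and Utp20 in NCsh libraries alone. This split does not show that the responses differ, since the difference of the responses itself passed for 0 of the 40 genes. By role, the guide-RNA particles and the abundant nucleolar proteins held most calls: 4 of 8 particle proteins in TMBIM6sh and 5 of 8 in NCsh, and 3 and 5 of 6 nucleolar proteins. The RNA polymerase I genes held 2 of 4 in TMBIM6sh, a share like those, and 1 of 4 in NCsh. The subunit assembly factors held 2 of 22 in each hairpin, near the share of all genes called higher (8.53% in TMBIM6sh and 11% in NCsh).

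Among the RNA polymerase I genes, Polr1b, a catalytic core subunit, had 5.05 and 4.96 RPKM in TMBIM6sh libraries with RANKL, 3.25 and 3.39 in TMBIM6sh without it, 5.71 and 5.19 in NCsh with RANKL, and 3.88 and 3.69 in NCsh without it. Every library with RANKL exceeded every library without it. The ratio of mean RPKM, with over without RANKL, was 1.51 in TMBIM6sh (log2 difference 0.48, SE 0.09, adjusted p = 0.00523) and 1.44 in NCsh (0.43, SE 0.09, adjusted p = 0.0102). Rrn3, the initiation factor that brings the polymerase to the ribosomal promoter, had 13.6 and 13.8 RPKM in TMBIM6sh libraries with RANKL against 10.4 and 12.2 without it, and 16.5 and 16.8 in NCsh with RANKL against 15.2 and 14.9 without it. The groups did not overlap within either hairpin, and the test passed only just in TMBIM6sh (log2 difference 0.26, SE 0.08, adjusted p = 0.0498) and not in NCsh (0.13, adjusted p = 0.291). The Rrn3 call in TMBIM6sh was lost in 9 of 17 alternatives, with adjusted p from 0.0184 to 0.338. Polr1a, the largest subunit, and Ubtf, which binds along active ribosomal genes, had log2 differences of 0.11 to 0.20 that did not pass.

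The most abundant member was Npm1 (nucleophosmin, a histone and ribosome chaperone), with 225 and 232 RPKM in TMBIM6sh libraries with RANKL, 198 and 197 in TMBIM6sh without it, 222 and 244 in NCsh with RANKL, and 186 and 217 in NCsh without it. Libraries with RANKL were all above those without it, yet the test did not pass under either hairpin (log2 difference 0.21 in both, adjusted p = 0.117 in both). Npm1 has processed copies elsewhere in the genome, and how tags shared with them were placed is not given in the sources used here. Ncl (nucleolin), an RNA-binding protein of the same compartment, had 60.5 and 59.3 RPKM in TMBIM6sh libraries with RANKL against 48.5 and 48.3 without it, and 56.3 and 61.2 in NCsh with RANKL against 44.2 and 48.8 without it. It rose 1.24-fold in TMBIM6sh (adjusted p = 0.0145) and 1.26-fold in NCsh (adjusted p = 0.0104), with no overlap, and these calls were lost in 4 and 2 of 17 alternatives. Nolc1, a chaperone that shuttles guide-RNA particles, had 26.0 and 27.8 RPKM in TMBIM6sh libraries with RANKL against 20.1 and 20.4 without it, and 26.3 and 25.2 in NCsh with RANKL against 16.9 and 20.1 without it. It rose 1.33-fold (adjusted p = 0.0110) and 1.39-fold (adjusted p = 0.00564), again with every RANKL library above every library without it, and the calls were lost in 3 and 1 of 17 alternatives.

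The box C/D particle carries fibrillarin, the methyltransferase, on a core of Nop56 and Nop58. Nop56 had 35.4 and 39.4 RPKM in TMBIM6sh libraries with RANKL, 25.1 and 25.6 in TMBIM6sh without it, 40.3 and 40.3 in NCsh with RANKL, and 26.6 and 26.9 in NCsh without it. The 2 states were far apart relative to the duplicates: the ratio was 1.48 in TMBIM6sh (log2 difference 0.54, SE 0.06, adjusted p = 0.000482) and 1.51 in NCsh (0.57, SE 0.06, adjusted p = 0.000604). Nop58 had 26.9 and 28.6 RPKM in TMBIM6sh libraries with RANKL, 24.0 and 21.6 in TMBIM6sh without it, 27.3 and 27.8 in NCsh with RANKL, and 16.3 and 20.2 in NCsh without it. With RANKL the hairpins overlapped, while without it both TMBIM6sh libraries lay above both NCsh libraries. Nop58 rose 1.51-fold in NCsh (log2 difference 0.58, SE 0.10, adjusted p = 0.00384), and its difference of 0.27 in TMBIM6sh did not pass (adjusted p = 0.0900). Fbl, fibrillarin itself, had 58.1 and 56.4 RPKM in TMBIM6sh libraries with RANKL against 50.4 and 47.4 without it, and 51.3 and 54.3 in NCsh with RANKL against 39.8 and 45.8 without it. Its rise of 1.23-fold in NCsh passed (adjusted p = 0.0271), and its 1.17-fold difference in TMBIM6sh did not (adjusted p = 0.0767). Rrp9, a protein of the U3 particle that guides the first cuts of the precursor, had 14.6 and 15.0 RPKM in TMBIM6sh libraries with RANKL against 10.3 and 11.2 without it, and 12.9 and 12.6 in NCsh with RANKL against 8.70 and 11.2 without it. The groups did not overlap, and the 1.38-fold rise in TMBIM6sh passed (adjusted p = 0.0186), unlike the 1.28-fold difference in NCsh (adjusted p = 0.0580). The Fbl call in NCsh was lost in 6 of 17 alternatives (adjusted p up to 0.149), and the Rrp9 call in TMBIM6sh in 5, among them leaving out any 1 of the 4 TMBIM6sh libraries (up to 0.132).

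The box H/ACA particle holds dyskerin (Dkc1), the pseudouridine synthase that is also a part of telomerase, with Gar1, Nhp2 and Nop10. Dkc1 had 4.91 and 4.55 RPKM in TMBIM6sh libraries with RANKL, 2.81 and 2.54 in TMBIM6sh without it, 11.3 and 12.1 in NCsh with RANKL, and 6.49 and 6.33 in NCsh without it. The 4 groups were fully separate, and the highest TMBIM6sh library stayed below the lowest NCsh library. RANKL went with a 1.77-fold rise in TMBIM6sh (log2 difference 0.64, SE 0.08, adjusted p = 0.000805) and a 1.82-fold rise in NCsh (0.78, SE 0.08, adjusted p = 0.000472), the largest log2 differences among the 40 genes in both. Gar1 had 8.81 and 8.75 RPKM in TMBIM6sh libraries with RANKL against 6.00 and 6.75 without it, and 8.74 and 9.26 in NCsh with RANKL against 4.79 and 7.08 without it. The NCsh duplicates without RANKL lay far apart, and the 1.52-fold rise in NCsh passed (adjusted p = 0.0256) but was lost in 5 of 17 alternatives, while the 1.38-fold difference in TMBIM6sh did not pass (adjusted p = 0.0738). Nhp2 had 46.1 and 52.3 RPKM in TMBIM6sh libraries with RANKL against 36.0 and 32.7 without it, and 43.5 and 42.1 in NCsh with RANKL against 31.4 and 42.8 without it. It rose 1.43-fold in TMBIM6sh (adjusted p = 0.0222), while the NCsh groups overlapped (1.15-fold, adjusted p = 0.279). The Nhp2 call in TMBIM6sh was lost in 5 of 17 alternatives, among them leaving out any 1 of the 4 TMBIM6sh libraries (adjusted p up to 0.151). Nop10, at 22.2 to 34.8 RPKM, passed under neither hairpin.

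Of the 10 small subunit factors, Utp20 alone passed, in NCsh, with 11.2 and 11.0 RPKM with RANKL against 8.80 and 8.58 without it (adjusted p = 0.0182). Of the 12 large subunit factors, Nop16 had 11.8 and 12.0 RPKM in TMBIM6sh libraries with RANKL against 8.95 and 7.82 without it, and 11.7 and 10.5 in NCsh with RANKL against 8.55 and 8.48 without it. It rose 1.42-fold in TMBIM6sh (adjusted p = 0.00480) and 1.30-fold in NCsh (adjusted p = 0.0238), with no overlap. Nop2, a methyltransferase of the large subunit RNA, had 22.8 and 23.7 RPKM in TMBIM6sh with RANKL against 19.6 and 17.5 without it, a 1.25-fold rise (adjusted p = 0.0236). These calls were lost in 4 of 17 alternatives for Utp20, 1 for Nop16 in TMBIM6sh, 6 for Nop16 in NCsh and 4 for Nop2. The other 10 large subunit factors, among them the Pes1, Bop1 and Wdr12 complex and the 5S particle factor Rrs1, had log2 differences of 0.03 to 0.26 and did not pass. The median log2 difference was 0.13 for the small subunit factors and 0.18 for the large subunit factors in TMBIM6sh, and 0.21 and 0.17 in NCsh, beside 0.19 and 0.17 for the 4 RNA polymerase I genes. Differences between roles were not tested.

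**Figure D2:**
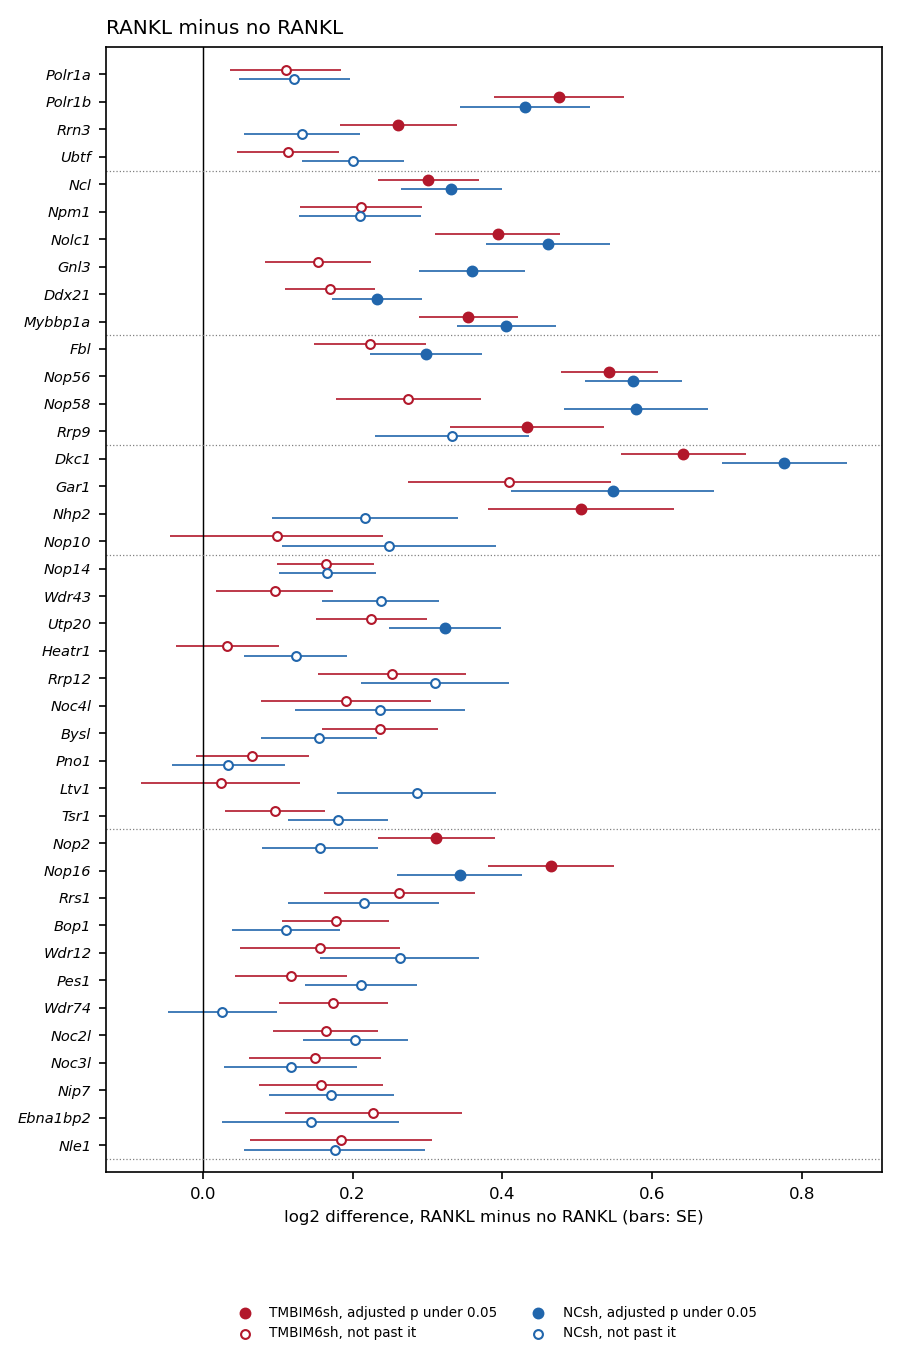
Log2 difference with minus without RANKL for each of the 40 genes, on the log2(RPKM + 1) scale, in TMBIM6sh (red) and NCsh (blue), with bars of 1 standard error and filled points at an adjusted p under 0.05. All points lie right of 0, with Dkc1 farthest at 0.64 in TMBIM6sh and 0.78 in NCsh.

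These counts depend on single libraries, and so do those over all genes. In each setting given here fewer of all genes were called higher than with all 8 libraries. In TMBIM6sh the count of 11 was 5 without either library without RANKL, 6 without replicate 1 with RANKL and 5 without replicate 2 with RANKL, and in NCsh the count of 13 was 9 and 17 without replicate 1 and 2 of the libraries without RANKL and 6 and 7 without replicate 1 and 2 of those with it. Dkc1 and Nop56 under both hairpins, Polr1b in TMBIM6sh, and Nop58 and Mybbp1a in NCsh kept their calls in all 17 alternatives.

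Between hairpins the same genes moved in both directions. Without RANKL 9 of the 40 were higher in TMBIM6sh and 3 lower, beside a background of 10.4% of all genes called higher and 13.8% called lower. With RANKL 8 were higher and 2 lower, beside a background of 8.93% and 19.7%. The median log2 difference of the members, TMBIM6sh minus NCsh, was 0.12 without RANKL, beside -0.02 over all genes, and 0.07 with RANKL, beside -0.07 over all genes. The median of 0.12 was 0.06 without NCsh replicate 1 without RANKL and 0.18 without replicate 2. The median of 0.07 was 0.04 without TMBIM6sh replicate 2 with RANKL and 0.15 under median-ratio scaling, beside 0.00 over all genes. The split with RANKL was 10 higher and 1 lower under median-ratio scaling, where all genes split into 1608 higher and 1621 lower, beside 986 and 2171 with the deposited values. The same 9 genes passed in both states: Ddx21, Heatr1, Mybbp1a, Noc2l, Noc3l, Polr1a and Tsr1 were higher in TMBIM6sh, and Dkc1 and Rrn3 were lower. How many of all genes passed in both states was not counted. Gnl3, Nop58 (higher) and Pno1 (lower) passed without RANKL alone, and Nop2 (higher) with RANKL alone. These 4 calls were lost often, in 9 of 17 alternatives each for Gnl3, Nop58 and Pno1 (adjusted p up to 0.205, 0.245 and 0.188) and in 5 for Nop2 (up to 0.240).

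Dkc1 had the largest hairpin difference of the 40, with the values given above. Its mean in TMBIM6sh was 0.405 times that in NCsh with RANKL (log2 difference -1.15, SE 0.08, adjusted p = 2.45e-05) and 0.417 times without it (-1.01, SE 0.08, adjusted p = 5.06e-05). Its partners in the particle, Gar1, Nhp2 and Nop10, had log2 differences of -0.09 to 0.19 between hairpins, none past the test. Rrn3 was lower in TMBIM6sh, with a ratio of 0.826 with RANKL (log2 difference -0.26, adjusted p = 0.0328) and 0.750 without it (-0.39, adjusted p = 0.00602). All 4 TMBIM6sh libraries lay below all 4 NCsh libraries for Rrn3. Without RANKL its call ended when TMBIM6sh replicate 1 was left out (adjusted p = 0.0610), and with RANKL it ended in 7 of 17 alternatives.

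Polr1a had 15.2 and 16.1 RPKM in TMBIM6sh libraries with RANKL, 14.1 and 14.8 in TMBIM6sh without it, 11.2 and 12.5 in NCsh with RANKL, and 10.9 and 10.7 in NCsh without it. Every TMBIM6sh library exceeded every NCsh library. The ratio was 1.32 with RANKL (log2 difference 0.38, SE 0.07, adjusted p = 0.00456) and 1.34 without it (0.39, SE 0.07, adjusted p = 0.00451). The polymerase genes thus did not share a direction, with Polr1a higher, Rrn3 lower, and Polr1b and Ubtf at log2 differences of -0.17 to -0.09 that did not pass.

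Mybbp1a, a nucleolar partner of RNA polymerase I and of several transcription factors, was singled out after its values were seen, because it and Dkc1 were called in all 4 comparisons of 2 groups. It had 54.2 and 58.4 RPKM in TMBIM6sh libraries with RANKL, 42.6 and 45.0 in TMBIM6sh without it, 43.4 and 47.0 in NCsh with RANKL, and 34.1 and 33.6 in NCsh without it. Either change alone went with similar levels, since TMBIM6sh without RANKL and NCsh with RANKL overlapped. TMBIM6sh over NCsh was 1.24 with RANKL (adjusted p = 0.00704) and 1.29 without it (adjusted p = 0.00386), and with over without RANKL was 1.29 in TMBIM6sh (adjusted p = 0.00574) and 1.33 in NCsh (adjusted p = 0.00336). Ddx21, a helicase of the nucleolus, stood at 40.7 to 48.4 RPKM in TMBIM6sh libraries and 34.0 to 40.9 RPKM in NCsh libraries, higher in both states (adjusted p = 0.0247 with RANKL and 0.00910 without it).

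Tsr1, a late factor of small subunit assembly known from yeast, had 18.2 and 18.9 RPKM in TMBIM6sh libraries with RANKL, 16.8 and 17.8 in TMBIM6sh without it, 12.9 and 12.7 in NCsh with RANKL, and 10.8 and 11.6 in NCsh without it. The hairpins did not overlap, with ratios of 1.45 with RANKL (log2 difference 0.50, SE 0.07, adjusted p = 0.000569) and 1.55 without it (0.59, SE 0.07, adjusted p = 0.000288). Tags were counted on both strands, and 32.3% of the exon bases that GENCODE gives Tsr1 are shared with Srr (serine racemase) on the other strand. Srr had 9.25 and 9.11 RPKM in TMBIM6sh libraries with RANKL, 9.64 and 9.50 in TMBIM6sh without it, 5.89 and 5.97 in NCsh with RANKL, and 6.33 and 5.89 in NCsh without it. It was higher in TMBIM6sh by nearly the same log2 difference (0.55 with RANKL, adjusted p = 0.000522, and 0.57 without it, adjusted p = 0.000504), so the tags of Tsr1 and Srr cannot be told apart in the shared part. Heatr1, a scaffold of the small subunit processome, had 15.4 and 15.7 RPKM in TMBIM6sh libraries with RANKL, 15.5 and 14.8 in TMBIM6sh without it, 11.8 and 11.1 in NCsh with RANKL, and 10.8 and 10.1 in NCsh without it. It was 1.36 times as high with RANKL (log2 difference 0.41, SE 0.07, adjusted p = 0.00203) and 1.46 times without it (0.50, SE 0.07, adjusted p = 0.000777), while RANKL itself left no difference past the test. Pno1, a factor that holds the end of the small subunit RNA, was 0.840 times as high in TMBIM6sh without RANKL (adjusted p = 0.0431).

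Noc3l and Noc2l, a related pair of factors that travel with early large subunit precursors, were both higher in TMBIM6sh. Noc3l had 8.23 and 7.97 RPKM in TMBIM6sh libraries with RANKL, 6.82 and 7.61 in TMBIM6sh without it, 5.43 and 6.22 in NCsh with RANKL, and 5.36 and 5.20 in NCsh without it. Its ratio was 1.39 with RANKL (log2 difference 0.42, SE 0.09, adjusted p = 0.00673) and 1.37 without it (0.39, SE 0.09, adjusted p = 0.0117), with no overlap of hairpins. Noc2l had 35.7 and 39.4 RPKM in TMBIM6sh libraries with RANKL, 32.2 and 34.5 in TMBIM6sh without it, 30.8 and 29.1 in NCsh with RANKL, and 25.4 and 26.4 in NCsh without it. The hairpins did not overlap for Noc2l either, with ratios of 1.25 (adjusted p = 0.00863) and 1.29 (adjusted p = 0.00561). Of the Noc2l exon bases 20.9% are shared with Samd11 on the other strand, which stood at 2.22 to 2.97 RPKM and was not called (log2 difference 0.13 with RANKL and 0.15 without it).

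**Figure D3:**
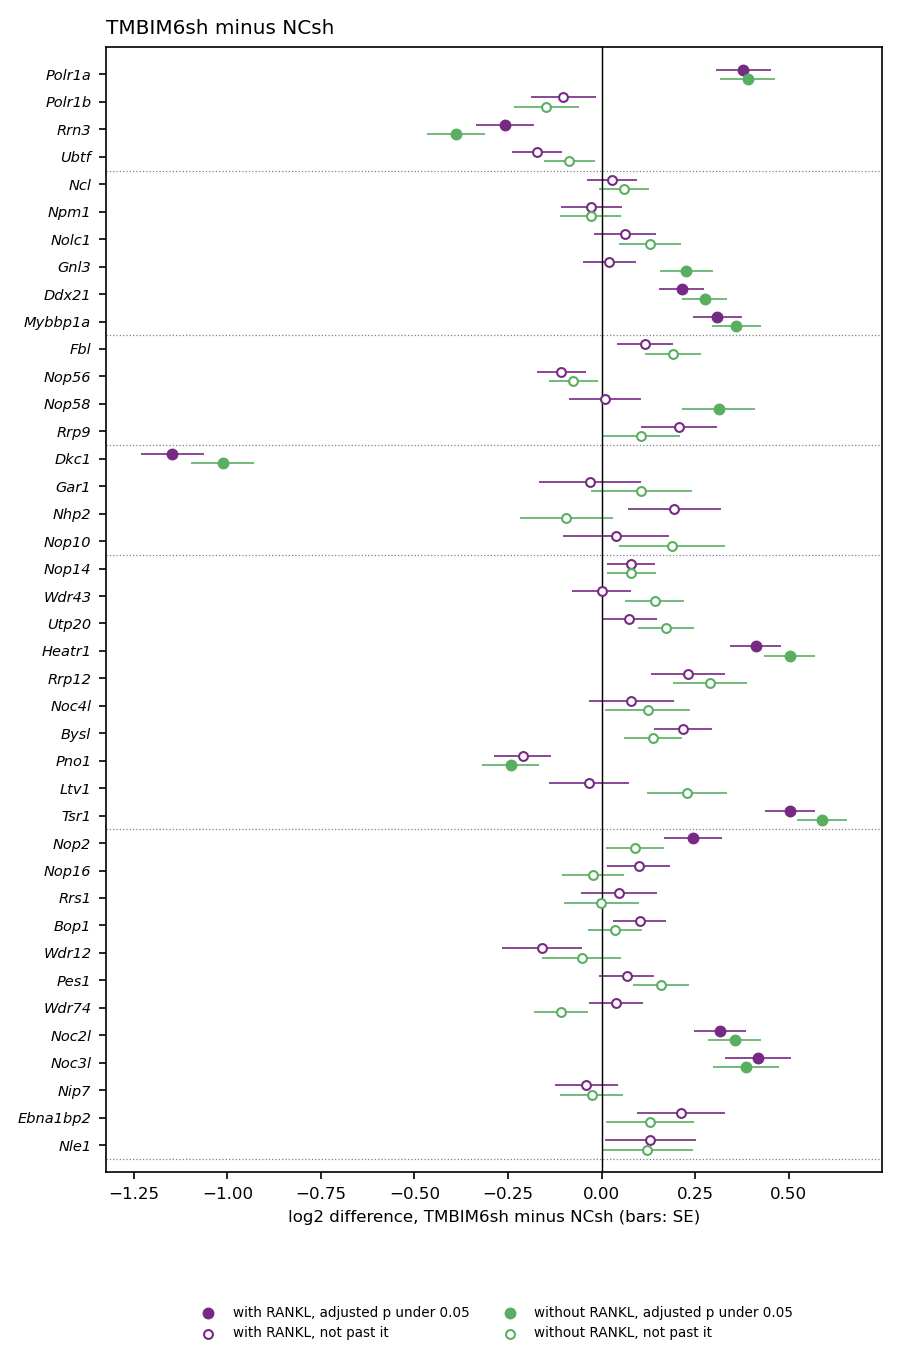
Log2 difference of TMBIM6sh minus NCsh for each of the 40 genes, on the log2(RPKM + 1) scale, with RANKL (purple) and without it (green), with bars of 1 standard error and filled points at an adjusted p under 0.05. Dkc1 stands alone on the left at -1.15 and -1.01, and Tsr1 is farthest right in both states. Next come Noc3l (0.42) and Heatr1 (0.41) with RANKL, and Heatr1 (0.50) without it.

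**Figure D4:**
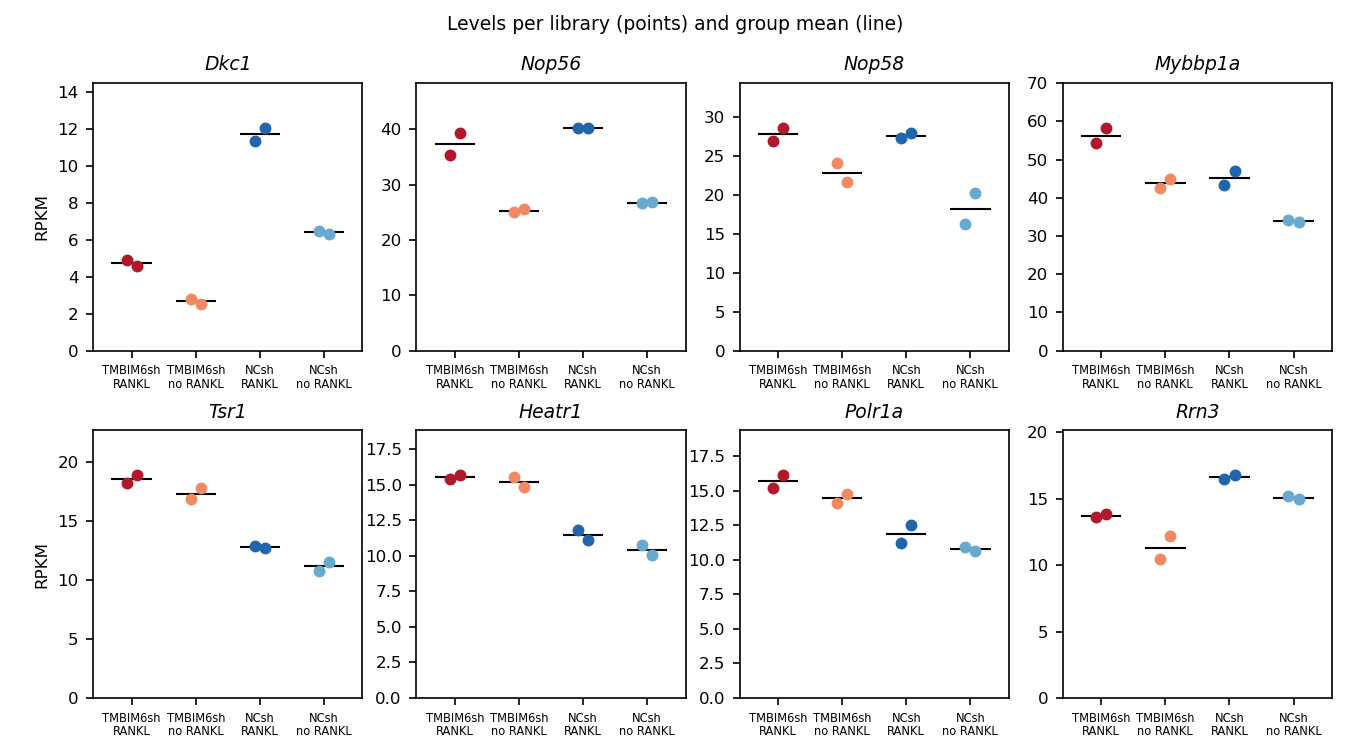
RPKM in each library (points) with the group mean (line) for 8 members, in the order TMBIM6sh with and without RANKL and NCsh with and without RANKL. Dkc1 forms 4 separate steps, Nop56 follows RANKL, and Tsr1, Heatr1 and Polr1a are above NCsh in all TMBIM6sh libraries while Rrn3 is below.

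Without RANKL the 12 calls between hairpins became 10 and 16 without NCsh replicate 1 and 2, and 8 and 6 without TMBIM6sh replicate 1 and 2. With RANKL the 10 calls became 6 without either NCsh library, and 8 and 5 without TMBIM6sh replicate 1 and 2. In each of these settings fewer of all genes were called as well, in either direction. Dkc1, Tsr1, Heatr1 and Polr1a in both states, and Mybbp1a without RANKL, kept their calls in all 17 alternatives.

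The response to RANKL was next compared between the hairpins (the RANKL difference in TMBIM6sh minus that in NCsh). Of the 40 genes 0 passed in either direction with limma, 0 had an unadjusted p under 0.05, and limma-voom called 0. Of all 11040 genes, 857 had an unadjusted p under 0.05. The background was 0% of all genes called higher and 0.00906% lower, which is 1 gene, the small nucleolar RNA Snord104. The lowest adjusted p among the members was 0.639, for Nop58, whose difference of responses was -0.30 with a 95% interval of -0.61 to 0.00. For Dkc1 it was -0.13 (95% interval -0.40 to 0.13) and for Nhp2 0.29 (-0.10 to 0.68). Differences as large as many of the RANKL responses lie within such intervals, so 0 calls does not show equal responses.

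Promoter windows were read for the members, and 5 are shown for genes that carry the results above. RefSeq windows of 300 bases (250 before to 50 after the start, GRCm38.p6) were found for 35 of the 40 members, not for Npm1, Fbl, Bop1, Rrs1 and Rrp12. The E-box CACGTG, which reads the same on both strands, was in a window of 10 of the 35 members (28.6%) against 8.09% of all 27025 genes with windows. A gene with several windows was counted once, and the 27025 genes were not limited to those at 1 RPKM. The motif CCGGAAG, searched on both strands and typical of ETS and GABP factors, was in 13 of 35 (37.1%) against 9.93%, and the 2 motifs did not overlap in any member. Members' windows were also richer in G and C, with a median of 59.3% against 52.7% over all genes with windows, each gene entering by the median of its windows. Both motifs are made mostly of these bases. The 3 windows with an E-box are from Rrn3 (chr16:13780449-13780748, plus strand), Tsr1 (chr11:74897830-74898129, plus strand) and Mybbp1a (chr11:72441077-72441376, plus strand), shown with the 2 members that had the largest RANKL differences kept in all alternatives under both hairpins and hold neither motif, Nop56 (chr2:130274162-130274461, plus strand) and Dkc1 (chrX:75095604-75095903, plus strand). Capitals mark CACGTG and CCGGAAG or its reverse complement CTTCCGG.
Rrn3: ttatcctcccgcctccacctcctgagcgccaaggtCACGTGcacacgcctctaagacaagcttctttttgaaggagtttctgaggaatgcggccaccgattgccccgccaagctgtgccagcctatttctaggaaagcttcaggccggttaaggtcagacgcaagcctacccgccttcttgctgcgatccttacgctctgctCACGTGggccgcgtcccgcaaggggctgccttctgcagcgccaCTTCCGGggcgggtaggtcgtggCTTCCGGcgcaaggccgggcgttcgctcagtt
Tsr1: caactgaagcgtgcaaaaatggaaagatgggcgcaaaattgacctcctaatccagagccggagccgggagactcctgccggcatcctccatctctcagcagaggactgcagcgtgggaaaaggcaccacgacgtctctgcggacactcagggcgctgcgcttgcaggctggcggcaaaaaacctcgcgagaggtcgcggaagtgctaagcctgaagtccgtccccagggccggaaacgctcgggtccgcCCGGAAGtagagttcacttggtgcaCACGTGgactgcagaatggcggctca
Mybbp1a: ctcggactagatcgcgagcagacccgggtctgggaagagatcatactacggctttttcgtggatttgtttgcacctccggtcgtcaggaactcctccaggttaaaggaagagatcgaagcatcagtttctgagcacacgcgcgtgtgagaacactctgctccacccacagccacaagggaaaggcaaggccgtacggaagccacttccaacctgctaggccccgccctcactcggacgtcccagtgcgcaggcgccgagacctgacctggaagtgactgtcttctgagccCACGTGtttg
Nop56: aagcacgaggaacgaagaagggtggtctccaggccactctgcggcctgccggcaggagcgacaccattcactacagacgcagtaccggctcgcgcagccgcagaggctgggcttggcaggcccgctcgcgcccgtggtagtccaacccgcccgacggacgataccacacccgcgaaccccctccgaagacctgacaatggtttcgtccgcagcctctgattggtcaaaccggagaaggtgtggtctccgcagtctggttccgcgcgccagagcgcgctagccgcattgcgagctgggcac
Dkc1: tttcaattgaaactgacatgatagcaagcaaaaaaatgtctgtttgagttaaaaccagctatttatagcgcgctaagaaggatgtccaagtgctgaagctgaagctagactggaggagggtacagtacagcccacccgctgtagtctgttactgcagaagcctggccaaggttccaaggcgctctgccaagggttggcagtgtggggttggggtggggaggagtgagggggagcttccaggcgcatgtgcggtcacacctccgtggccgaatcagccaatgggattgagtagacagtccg
Rrn3 holds 2 E-boxes, at -215 and -48 relative to its start, and 2 CTTCCGG motifs. Tsr1 holds 1 of each motif, its E-box lying 24 bases after the start, and Mybbp1a holds an E-box 40 bases after the start. A match is a run of letters and not a bound site, and the absence of these letters from the Nop56 and Dkc1 windows says nothing on what binds there.

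Across the 40 genes a few properties that played no role in choosing them could be set beside the calls. In GENCODE, 7 members host small nucleolar RNAs in their genes, 21 in all: Ncl, Gnl3, Nop56, Nop58, Dkc1, Wdr43 and Tsr1. Of these 7 host genes 5 were called with RANKL under at least 1 hairpin, against 12 of the 33 other members. For the E-box, 4 of the 10 members with it were called with RANKL, against 12 of the 25 members whose window lacks it. For CCGGAAG, 5 of the 13 members with it were called with RANKL, against 11 of the 22 members whose window lacks it. The share of all genes called under at least 1 hairpin was not counted, so these counts have no background beside them. They are counts of a list chosen by name, given as a description.

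Myc, the transcription factor named above, had 22.8 and 25.1 RPKM in TMBIM6sh libraries with RANKL, 14.0 and 12.8 in TMBIM6sh without it, 24.4 and 24.8 in NCsh with RANKL, and 10.8 and 11.2 in NCsh without it. It rose with RANKL under both hairpins (log2 difference 0.79, adjusted p = 0.000116, in TMBIM6sh, and 1.09, adjusted p = 4.54e-05, in NCsh). Between hairpins Myc was higher in TMBIM6sh without RANKL (0.26, adjusted p = 0.0260) and did not pass with it (-0.04, adjusted p = 0.719). The entry Rn45s is named for the ribosomal RNA precursor. In TMBIM6sh it had 11780 and 10567 RPKM with RANKL, and 10477 and 9912 RPKM without RANKL. In NCsh it had 9743 and 9951 RPKM with RANKL, and 9905 and 9982 RPKM without RANKL. Both TMBIM6sh libraries with RANKL lay above the other 6, whose groups overlapped, and no comparison passed (adjusted p = 0.316 to 0.955). Whether ribosomal RNA was depleted before sequencing is not given in the sources used here. Finished ribosomal RNA is cut from this precursor, so tags of precursor and finished RNA cannot be told apart where they share sequence. The entry is therefore no measure of precursor output.

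Other lists of the same pathway were counted beside the members, all chosen by function. With RANKL, 8.53% of all genes tested were called higher and 6.89% lower in TMBIM6sh, and 11% and 3.98% in NCsh. Between hairpins, 8.93% were called higher and 19.7% lower with RANKL, and 10.4% and 13.8% without it. Several counts in this and the following lists lie near or under these shares, and no list was tested as a set. Of 40 further small subunit factors 4 rose and 0 fell with RANKL in TMBIM6sh and 8 rose and 0 fell in NCsh. Krr1, which sits in the processome, had the smallest p in both, at 29.6 RPKM with and 22.9 RPKM without RANKL in TMBIM6sh (log2 difference 0.35, adjusted p = 0.00378) and 28.5 and 20.3 RPKM in NCsh (0.47, adjusted p = 0.00116). Utp6 and Nol6 rose under both hairpins (0.27 each in TMBIM6sh, and 0.25 and 0.33 in NCsh). Utp15 passed in NCsh (0.42, adjusted p = 0.00828) and not in TMBIM6sh (0.24, adjusted p = 0.0794). Between hairpins 5 of these 40 were higher in TMBIM6sh and 1 lower with RANKL, and 2 higher and 1 lower without it. Riok1, a kinase of late small subunit maturation, was the lower one in both states (-0.47, adjusted p = 0.00214, with RANKL and -0.35, adjusted p = 0.0103, without it), and Utp14a was higher in both (0.39 and 0.33). Wdr46 was also higher in both (0.25 with RANKL, adjusted p = 0.0199, and 0.21 without it, adjusted p = 0.0439). Tbl3 was higher with RANKL (0.45, adjusted p = 0.00627) and did not pass without it (0.25, adjusted p = 0.0873).

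Of 40 further large subunit factors 2 rose and 0 fell with RANKL in TMBIM6sh and 6 rose and 0 fell in NCsh. Eif6, which keeps immature large subunits from joining, had 66.7 RPKM with and 47.6 RPKM without RANKL in TMBIM6sh (log2 difference 0.48, adjusted p = 0.00144) and 61.9 and 48.1 RPKM in NCsh (0.36, adjusted p = 0.00786). Ftsj3 rose under both hairpins (0.36 in TMBIM6sh and 0.25 in NCsh). Las1l and Rrp1b rose in NCsh (0.39 and 0.41) and did not pass in TMBIM6sh (0.19, adjusted p = 0.103, and 0.34, adjusted p = 0.0523). Between hairpins 5 were higher and 2 lower in each state, the helicase Ddx18 being lowest at 15.8 RPKM in TMBIM6sh and 25.2 RPKM in NCsh with RANKL (-0.64, adjusted p = 0.000696) and 14.4 and 21.4 RPKM without it (-0.54, adjusted p = 0.00223). Las1l was also lower in TMBIM6sh in both states (-0.49 with RANKL, adjusted p = 0.000771, and -0.29 without it, adjusted p = 0.0145). Rrp15 (0.57 with RANKL and 0.41 without it) and Mak16 (0.27 and 0.41) were higher in both.

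Of 19 factors for assembly of guide-RNA particles and RNA modification 2 rose with RANKL in TMBIM6sh and 5 in NCsh, with 0 falling in both. The ATPase Ruvbl2 rose in both (log2 difference 0.53 in TMBIM6sh and 0.47 in NCsh). Snu13, a box C/D core protein, passed in TMBIM6sh (0.31) and not in NCsh (0.25, adjusted p = 0.0950). Nat10 and Nop9 passed in NCsh (0.35 and 0.26) and not in TMBIM6sh (0.20, adjusted p = 0.129, and 0.21, adjusted p = 0.0562). Between hairpins 1 was higher and 1 lower in each state. Naf1, an assembly factor of box H/ACA particles, was lower in TMBIM6sh, at 3.84 RPKM against 5.87 RPKM in NCsh with RANKL (-0.51, adjusted p = 0.00682) and 2.90 against 5.26 RPKM without it (-0.69, adjusted p = 0.00165). Coil, the scaffold of Cajal bodies, was higher, at 4.03 RPKM in TMBIM6sh against 2.30 RPKM in NCsh with RANKL (0.61, adjusted p = 0.00308) and 4.02 against 2.38 RPKM without it (0.57, adjusted p = 0.00513). Naf1 and Dkc1 were thus both lower in TMBIM6sh, while the particle proteins Gar1, Nhp2 and Nop10 did not pass between hairpins. Naf1 was named for its p-value and Dkc1 for the size of its log2 difference.

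Of 25 tested nucleases and exosome genes (26 listed) 3 rose with RANKL in TMBIM6sh and 5 in NCsh, with 0 falling in both. Dis3, the catalytic exosome nuclease, rose in both (log2 difference 0.32 in TMBIM6sh and 0.51 in NCsh). Pop5 and Rpp14, subunits of RNase P and RNase MRP, rose in TMBIM6sh (0.66 and 0.36) and did not pass in NCsh (0.02 and 0.05). Exosc9 and Mphosph6 rose in NCsh (0.30 and 0.39) and did not pass in TMBIM6sh (0.14 and 0.22). Between hairpins 4 were higher in TMBIM6sh and 1 lower with RANKL, and 5 higher and 2 lower without it. Exosc8 (0.59 with RANKL and 0.54 without it), Papd5 (0.20 and 0.39) and Skiv2l2 (0.23 and 0.32) were higher in both states, and Exosc10 (-0.30 and -0.29) was lower in both. Exosc4 was higher with RANKL (0.42) and did not pass without it (0.05, adjusted p = 0.737), and Pop5 was lower without RANKL (-0.45) and did not pass with it (0.18, adjusted p = 0.187). Among 19 other RNA polymerase I subunits and factors 1 rose and 1 fell with RANKL in TMBIM6sh, Polr2e (0.31) and the topoisomerase Top1 (-0.36), and only Top1 passed in NCsh (-0.27). Between hairpins 0 were higher and 2 lower with RANKL and 1 higher and 3 lower without it: Baz2a and Twistnb were lower in TMBIM6sh in both states (-0.55 and -0.43 with RANKL, -0.36 and -0.34 without it) and Polr1c without RANKL (-0.28).

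The 79 cytosolic ribosomal proteins are the main cargo of this pathway. With RANKL 0 rose and 0 fell under either hairpin by limma, with 0 and 1 lower at an unadjusted p under 0.05 in TMBIM6sh and NCsh, and limma-voom called 0 in TMBIM6sh and 6 lower in NCsh. Their median log2 difference was 0.06 in TMBIM6sh and -0.10 in NCsh, and between hairpins it was 0.08 with RANKL and -0.09 without it. Rpl5 was lower in TMBIM6sh in both states, at 112 RPKM against 174 RPKM in NCsh with RANKL (-0.63, adjusted p = 0.000598) and 109 against 178 RPKM without it (-0.69, adjusted p = 0.000419), and Rps27 was lower without RANKL (-0.41, adjusted p = 0.0259). Many ribosomal protein genes have processed copies, so their counts are uncertain. All 79 had a positive difference of responses (TMBIM6sh minus NCsh), with a median of 0.16 and 0 past the test, but 1 library decided this: without NCsh replicate 2 without RANKL the median was -0.01 and 35 of 79 were positive, and without replicate 1 it was 0.33. Without that replicate 1, 32 ribosomal proteins were called lower with RANKL in NCsh and 36 lower in TMBIM6sh without RANKL, while without replicate 2 the counts were 0 and 1.

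Most markers of S phase and mitosis were higher with RANKL under both hairpins and lower in TMBIM6sh in both states. Of 22 such genes 21 rose and 1 fell with RANKL in TMBIM6sh (median log2 difference 0.78), and 21 rose and 0 fell in NCsh (0.62). Between hairpins 0 were higher and 19 lower in TMBIM6sh with RANKL (-0.57), and 0 higher and 20 lower without it (-0.61). Rrm2, a ribonucleotide reductase subunit, had 29.2 RPKM with and 13.8 RPKM without RANKL in TMBIM6sh and 37.2 and 19.3 RPKM in NCsh, and Mki67 had 19.8 and 10.3 RPKM in TMBIM6sh and 33.6 and 19.9 RPKM in NCsh. The part of dividing cells in the biogenesis results was not tested.

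**Figure D5:**
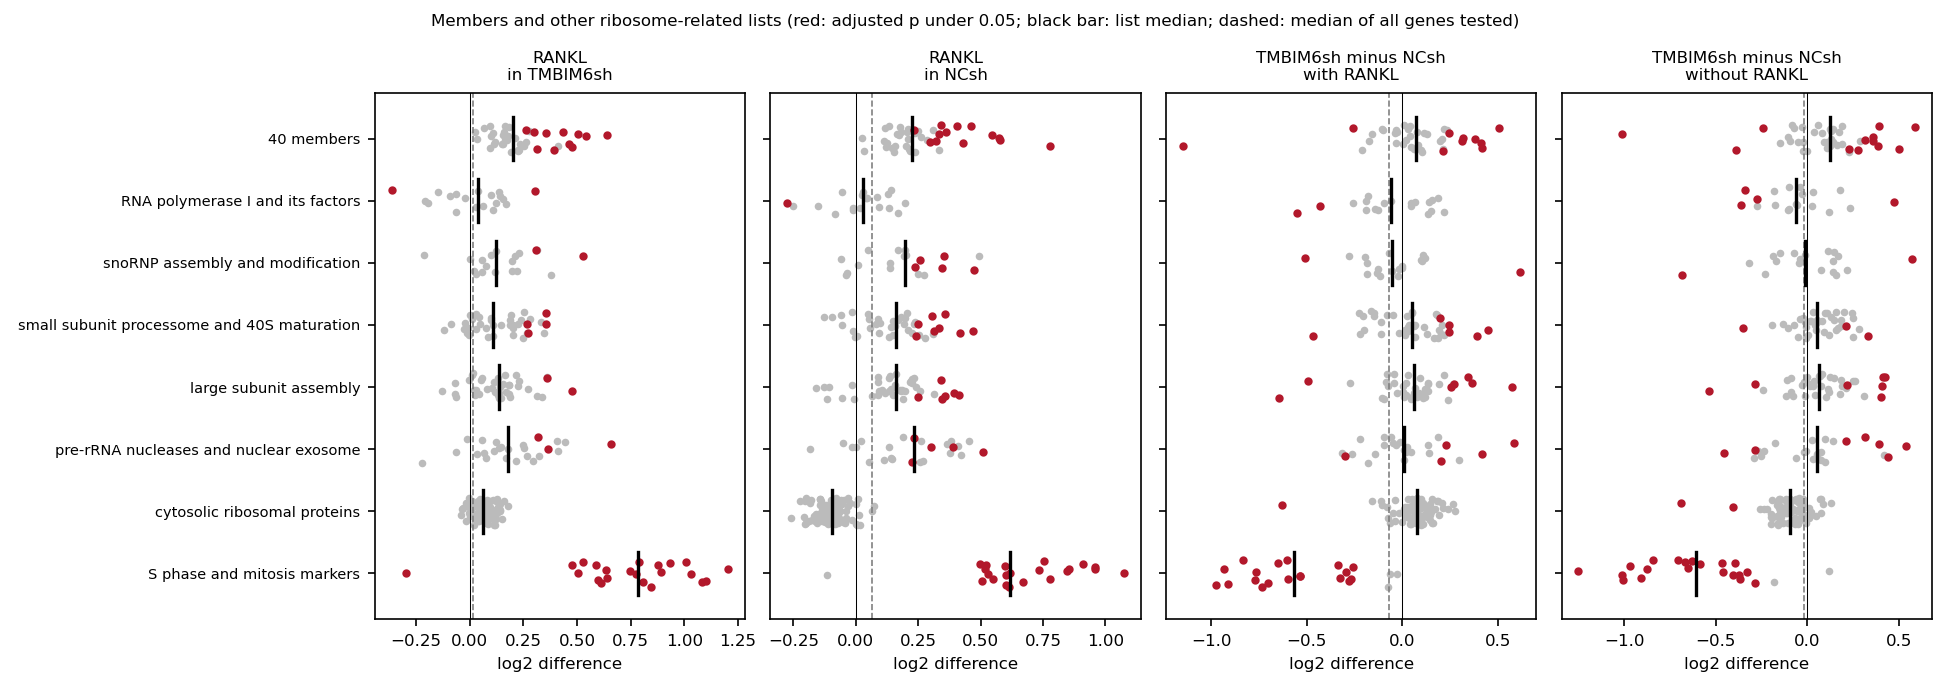
Log2 differences of the 40 members and of 7 other lists (rows), 1 point per gene, in the 4 comparisons of 2 groups (panels), red at an adjusted p under 0.05, with a black bar at the list median and a dashed line at the median of all genes tested. The median of the members lies right of the dashed line with RANKL. Medians of the ribosomal proteins lie close to 0, with Rpl5 at -0.63 and -0.69 in TMBIM6sh minus NCsh with and without RANKL. Most S phase and mitosis markers lie right with RANKL and left in TMBIM6sh minus NCsh.

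In 5228 other genes whose mean reached 10 RPKM, those most like the mean log2 level of the 40 members over the 8 libraries were entries of the Ugt1a locus on chromosome 1, Ugt1a6a at a Pearson correlation of 0.996, then Ugt1a2, Ugt1a9, Ugt1a5 and Ugt1a10. These 5 entries all end at position 88220002 and share exons, so they count as 1 gene. Outside that locus, chosen after the values were seen, Jdp2 (0.991), Stxbp3 (0.991), Prpf31 (0.991), Relb (0.989) and Impdh2 (0.988) came next. The correlations are over 8 libraries in 4 groups that share the RANKL difference, and are a description.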

How the data were processed

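RNA was sequenced in 8 libraries, 2 for each of 4 groups. RPKM values were deposited by the authors, made with HOMER (mm10, RefSeq genes) per the file headers. Exon tags of both strands were summed, 1 isoform entry was kept per gene, and sums were scaled by exon length and library size. Column heads read FPKM, but the header's command requests RPKM. HISAT2 and DESeq2 are named without versions per the submitters' processing notes. Steps of 1 tag in the values gave the tags per gene and the depth (in each library 2418 to 2574 values were checked, and 100% came within 0.1 of a whole tag), and these tags were used in the limma-voom alternative. Values of 1 library rest on at least 160 tags for every member.

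The 11040 genes that reached 1 RPKM in 2 or more libraries were analysed as log2(RPKM + 1), a scale that understates the change of low genes, with no further scaling. limma 3.58.1 in R 4.3.3 fitted 4 group means with an intensity trend (4 residual and 5.54 prior degrees of freedom), and p-values were adjusted with Benjamini-Hochberg over all genes tested, with a threshold of 0.05. Comparisons were RANKL in each hairpin, TMBIM6sh minus NCsh with and without RANKL, and the difference of the RANKL responses. A permutation test of 2 against 2 libraries cannot go below p = 0.333 and was not used. The fit was tested on simulated data. Comparisons that share a group share its libraries. Members, lists and tests were chosen with earlier results of these data known. Members named in full are those called, at most the 6 with the largest log2 difference per comparison, with Ncl, Npm1 and Fbl, and up to 3 genes per list and comparison with the smallest p. Values of Mybbp1a, Ddx21, Utp20, Nop2 and Pno1 were added after they were seen. Overlaps and hosted small nucleolar RNAs come from GENCODE M21, promoter windows from RefSeq. Alternatives changed the pseudocount (0.1), the filter (none, or 5 RPKM), the scaling (median ratio, or exon tags without Rn45s), the test (limma-voom), the libraries fitted and the replicate block, left out each library, and, chosen after seeing the data, removed the trend with exon length.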

Additional observations from a re-analysis of the deposited data

How the results depend on the processing

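Of 46 calls of members between 2 groups, 16 held in all 17 alternatives, 30 were lost in at least 1 and 0 reversed. The count of members called with RANKL in TMBIM6sh (11) was 7 without the low-value filter and 20 with limma-voom, and that in NCsh (13) was 21 with limma-voom. The share of all genes called higher in TMBIM6sh (8.53%) was 3.93% and 11.2% there, and that in NCsh (11%) was 16.3% with limma-voom. The median log2 difference of members with RANKL in NCsh (0.22) was 0.144 under median-ratio scaling and 0.164 with the length trend removed. TMBIM6sh minus NCsh with RANKL (0.07) was 0.145 and 0.147 under these, and the difference of responses (-0.04) was 0.0198 and 0.025. Under median-ratio scaling all genes split into 787 higher and 850 lower with RANKL in NCsh, beside 1214 and 439 as deposited, and members between hairpins with RANKL split into 10 higher and 1 lower, beside 8 and 2, or 11 and 1 with the length trend removed. Leaving out 1 library gave counts of 5 to 15 (RANKL in TMBIM6sh), 6 to 17 (RANKL in NCsh), 5 to 11 and 6 to 16 (TMBIM6sh minus NCsh with and without RANKL) and 0 to 0 (difference of responses). The medians spanned 0.169 to 0.252, 0.179 to 0.30, 0.0430 to 0.102, 0.0562 to 0.184 and -0.0655 to 0.0117. A group left with 1 library is assumed there to vary like the others, and which part of a lost call is due to fewer samples was not tested.

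Calls lost for 1 library alone were Nop16 (adjusted p = 0.0540 without TMBIM6sh replicate 2 without RANKL) and Mybbp1a (0.0681 without TMBIM6sh replicate 1 without RANKL) with RANKL in TMBIM6sh. In NCsh they were Nolc1 (0.0547) and Polr1b (0.0872) without NCsh replicate 1 with RANKL and Gnl3 (0.0738) without replicate 2. Between hairpins without RANKL, Noc3l (0.0979), Noc2l (0.0621) and Ddx21 (0.0847) were lost without TMBIM6sh replicate 2 and Rrn3 (0.0610) without replicate 1, and with RANKL Noc3l (0.0585) without NCsh replicate 1. Each of the 4 TMBIM6sh libraries, left out in turn, ended the calls of Nhp2, Rrp9 and Ncl with RANKL in TMBIM6sh (adjusted p up to 0.151, 0.132 and 0.0997 over all alternatives). NCsh replicate 1 without RANKL and either NCsh library with RANKL did so for Gar1 and Fbl in NCsh (up to 0.119 and 0.149). The calls lost most often, in 9 alternatives each, were Rrn3 with RANKL in TMBIM6sh, Ddx21 with RANKL in NCsh, and Nop58, Gnl3 and Pno1 between hairpins without RANKL. With the replicate block the counts were 11, 16, 11 (8 higher and 3 lower), 13 (10 and 3) and 0. Differences of replicate 2 minus replicate 1 correlated between groups at -0.0651 to 0.0625. Whether same-numbered libraries share an origin is not in the labels, and these correlations cannot decide it. The lowest member value rested on 160 tags, and no member was at 0 in any library.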
